A study of Mus musculus with 31 samples.

Results

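The Obox genes are a family of paired-type homeobox genes that lie together on mouse chromosome 7. The members were taken by name, as every row of the deposited count table whose gene symbol is Obox followed by a number, which gave 6 of 20544 symbols: Obox1, Obox2, Obox3, Obox5, Obox6 and Obox7. RNA had been sequenced from single 2-cell embryos made by in vitro fertilization (IVF), 16 with control sperm and 15 with sperm that had undergone energy restriction and recovery (SER). Sperm came from wild-type C57BL/6J males of 12 to 14 weeks, and one cauda epididymis of an animal went into complete medium (control) while the other went into medium lacking glucose and pyruvate (SER) until the sperm lost motility, after 15 to 45 min. Sperm of both groups were then washed in complete medium and added for 4 h to cumulus–oocyte complexes of superovulated CD1 females of 8 to 10 weeks, so every embryo carried a CD1 maternal and a C57BL/6J paternal genome, and embryos of both groups were collected 32 h post insemination (HPI). Each embryo is a library of its own. The paper sequenced embryos of both groups in a few independent batches, but the labels do not name the batch of an embryo. No batch term could therefore be entered, and how batches divide between the groups is not known here. The p-values measure the spread between these embryos taken as independent, which embryos of the same batch may not be.

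OBOX proteins bind DNA through a homeodomain, a fold of 3 helices of which the last lies in the major groove of the DNA. The mouse family is known for its part in zygotic genome activation, the start of transcription from the embryo's own genome. Obox1, Obox2, Obox5 and Obox7 are known as maternal members, whose mRNA is loaded into the oocyte and is cleared after fertilization. Obox3 and Obox6 are known as zygotic members that are transcribed in the 2-cell embryo. The maternal members are described first here and the zygotic members after them.

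In the RefSeq annotation of GRCm38, the build that the labels give for these libraries as mm10, the 6 genes lay within 1.18 Mb, at chr7:14659708-15839679. Obox7 (chr7:14659708-14665996), Obox2 (chr7:15388851-15398545), Obox1 (chr7:15547257-15556846) and Obox5 (chr7:15750370-15759274) were on the plus strand. Obox3 (chr7:15625306-15639777) and Obox6 (chr7:15833250-15839679) were on the minus strand. The GENCODE vM21 annotation held 7 protein-coding Obox genes, of which Obox8 was not a row of the table, and 46 Obox pseudogenes on chromosome 7, of which 0 were rows of the table. In GENCODE, 59 exon bases of Obox1 and Obox2 overlapped on the same strand.

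The homeobox, the stretch of coding sequence that encodes the homeodomain, shows how alike the members are and where they part. In each gene 1 intron divided it, and it was read from the GENCODE transcripts on the strand of the gene, 5′ to 3′, with the bases that differ from Obox5, the member of highest count, in capitals.
Obox5: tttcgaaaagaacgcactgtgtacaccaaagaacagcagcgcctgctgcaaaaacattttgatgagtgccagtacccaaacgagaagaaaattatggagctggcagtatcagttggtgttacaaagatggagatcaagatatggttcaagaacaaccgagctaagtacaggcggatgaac
Obox1: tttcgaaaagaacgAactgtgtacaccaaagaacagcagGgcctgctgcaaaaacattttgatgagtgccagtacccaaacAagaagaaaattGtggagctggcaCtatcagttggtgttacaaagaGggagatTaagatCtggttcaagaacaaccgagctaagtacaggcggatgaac
Obox2: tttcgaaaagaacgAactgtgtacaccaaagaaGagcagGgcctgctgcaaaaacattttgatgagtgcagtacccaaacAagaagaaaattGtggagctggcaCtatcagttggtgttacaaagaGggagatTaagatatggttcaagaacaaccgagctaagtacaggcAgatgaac
Obox7: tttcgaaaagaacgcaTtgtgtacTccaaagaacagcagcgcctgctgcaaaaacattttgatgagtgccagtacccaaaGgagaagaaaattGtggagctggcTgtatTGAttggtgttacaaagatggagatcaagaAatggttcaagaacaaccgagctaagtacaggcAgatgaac
Obox3: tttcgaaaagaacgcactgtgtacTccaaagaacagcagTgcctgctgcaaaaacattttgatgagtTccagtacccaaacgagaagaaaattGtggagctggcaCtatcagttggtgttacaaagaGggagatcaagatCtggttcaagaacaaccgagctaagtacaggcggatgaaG
Obox6: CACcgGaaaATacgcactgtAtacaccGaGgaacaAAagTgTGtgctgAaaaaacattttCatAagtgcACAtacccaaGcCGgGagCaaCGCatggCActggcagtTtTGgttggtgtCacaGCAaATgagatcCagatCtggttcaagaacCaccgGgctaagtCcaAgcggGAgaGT
The homeobox of Obox5 (chr7:15757941-15758580, intron included) differed by 8 substitutions from that of Obox1 (chr7:15555567-15556192) and by 8 from that of Obox3 (chr7:15626284-15626933). From Obox7 (chr7:14664442-14665309) it differed by 10, and from Obox6 (chr7:15833909-15834517) by 49 of 180 bases. Obox6 was therefore the member farthest from the others in sequence, with 69.4% to 72.8% of homeobox bases identical to any of them. That of Obox2 (chr7:15397250-15397875) was found by alignment to Obox1, since it held 179 bases, 1 fewer than the others, and the annotated coding sequence of 151 residues ended within it. Obox2 and Obox1 shared 97.8% of aligned homeobox bases.

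Sequence between members that is alike over the length of a read limits what a count can tell, because read 1 had 45 bases and read 2 had 30, and the authors kept uniquely mapping reads among those from the 5′ end. Of the 30-base positions of the RefSeq transcript of Obox1, 24.3% occurred in the annotated transcripts of no other gene, and 69.5% also occurred in Obox2. Obox2 was the least distinct member, with 19.7% unique positions at 30 bases and 33.3% at 45. Obox3 had 43.2% unique positions, the shared ones lying largely in Obox3 pseudogenes, and Obox7 had 54.9%. Obox5 with 64.8% and Obox6 with 84.3% were the most distinct. Counts of Obox1 and Obox2 are thus uncertain relative to each other, and so is the level of each member relative to the rest.

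**Figure D1:**
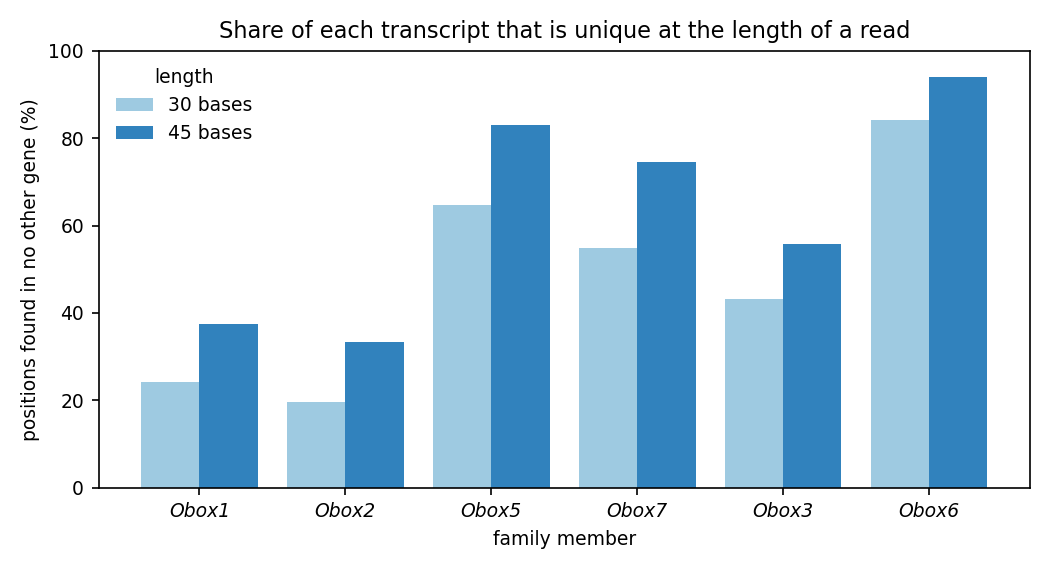
Share of the positions of each Obox transcript (y axis, percent) whose sequence of 30 or 45 bases, the lengths of the 2 reads, occurs in no other annotated gene. Obox1 and Obox2 have the lowest bars at both lengths and Obox6 the highest.

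Promoter sequence is given as a description. The levels of Obox1, Obox5 and Obox7 correlated over the embryos, as described with the relations between members, while Obox3 did not follow them. The parts of promoter sequence and of mRNA clearance in these levels were not tested. The windows, from 250 bases before the RefSeq start to 50 bases from it in GRCm38.p6, are given 5′ to 3′ on the strand of the gene, with a run of 42 bases that all of these 4 promoters held in capitals.
Obox5, chr7:15750120-15750419, plus strand: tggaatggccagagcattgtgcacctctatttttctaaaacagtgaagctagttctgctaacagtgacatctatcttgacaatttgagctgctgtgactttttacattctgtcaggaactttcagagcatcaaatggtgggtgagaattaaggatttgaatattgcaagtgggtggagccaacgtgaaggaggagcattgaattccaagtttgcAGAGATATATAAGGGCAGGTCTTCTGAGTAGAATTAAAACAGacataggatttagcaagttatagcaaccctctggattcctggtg
Obox7, chr7:14659458-14659757, plus strand: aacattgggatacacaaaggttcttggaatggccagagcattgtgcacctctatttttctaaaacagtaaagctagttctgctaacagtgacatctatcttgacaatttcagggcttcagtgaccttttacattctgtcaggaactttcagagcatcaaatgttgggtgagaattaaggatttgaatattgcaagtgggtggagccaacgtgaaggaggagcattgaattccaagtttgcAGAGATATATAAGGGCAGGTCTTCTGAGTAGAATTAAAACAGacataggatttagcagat
Obox3, chr7:15639728-15640027, minus strand: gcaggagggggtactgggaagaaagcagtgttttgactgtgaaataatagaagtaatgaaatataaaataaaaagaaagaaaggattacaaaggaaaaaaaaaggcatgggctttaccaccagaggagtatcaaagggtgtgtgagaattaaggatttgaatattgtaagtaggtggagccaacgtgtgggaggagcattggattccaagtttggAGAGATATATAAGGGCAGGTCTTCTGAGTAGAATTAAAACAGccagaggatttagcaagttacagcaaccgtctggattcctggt
The 42-base run was also in the window of Obox1 (chr7:15547007-15547306). Of 32817 RefSeq promoter windows on both strands, these 4 held it, and no other gene did. The run had been picked as the longest that the windows of Obox3 and Obox5 share, so this count describes it and tests nothing. Among these 4 whole windows Obox3 parted from the rest. Between Obox1 and Obox5 88.1% of aligned bases were identical, between Obox1 and Obox7 85.4% and between Obox5 and Obox7 82.2%. Between Obox3 and these 3 it was 60.1% to 68.8%. The window of Obox2 (chr7:15388601-15388900) shared a run of 203 bases with that of Obox1, and its start is annotated further upstream relative to that run. The window of Obox2 ends with that run, which in Obox1 lies before the 42-base run. Offset in this way, it had lower identity than Obox3, with 51.1% to Obox1, 44.7% to Obox5 and 52.5% to Obox7. The level of Obox2 also correlated with those of these 3 members. Obox6 had no entry in the promoter table. Searched on both strands, TAATCC, a core recognised by homeodomains of the bicoid class, and TATAAA, the box of many core promoters, each had 1 match in the window of Obox3, at -168 and -189 from its start and without overlap, and none in the windows of Obox1, Obox2, Obox5 and Obox7. TAATCC was in 7.06% and TATAAA in 13.6% of all windows, and TAATTA, which was in 5.30% of them, had no match in these 5. The search was for exact matches only. The 42-base run holds TATATAAG, a stretch close to TATAAA that was not counted. The lack of a match in Obox1, Obox5 and Obox7 therefore does not show that they lack such a box.

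The libraries held 532945 to 3088396 counts, with a median of 1105795, and levels are given as CPM, a gene's counts scaled to a library total of 1e+06. The embryos carried the transcripts of 2-cell embryos, with 30 of the 31 genes of a 2-cell burst list in the table detected in at least 16 embryos, but 2 of them, control replicate 4 and SER replicate 15, stood apart on the first principal component, computed without the Obox genes. Their mean log2(CPM + 1) over those burst genes was 1.76 and 2.33, against 4.20 to 6.25 in the other 29 embryos, and over oocyte transcripts it was 8.29 and 8.40 against 6.32 to 8.05. Results that rest on these embryos are given with and without them. Control replicate 5 had the highest sum of cumulus cell markers, 3874 CPM against a median of 218 CPM over the 29.

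Among the maternal members, Obox5 had the highest count. In control-generated embryos its level was 293 CPM at the lowest, 647 at the median and 3816 at the highest, which was control replicate 3. In SER-generated embryos it was 162, 325 and 901 CPM. The groups overlapped, with 11 of 15 SER-generated embryos below the control median, and 10 of 14 without the embryos that stood apart. Obox5 was detected in all 31 embryos, on 171 counts or more in each.

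Obox1 was the next of the maternal members. It ranged from 24.7 CPM over a median of 77.5 to 601 in control-generated embryos, and from 14.9 over 42.2 to 306 in SER-generated embryos. The highest embryo of the SER group was SER replicate 15, one of those that stood apart, and the highest of the control group was again control replicate 3. The groups overlapped, with 13 of 15 SER-generated embryos below the control median, and 11 of 14 without the embryos that stood apart.

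Obox7 and Obox2 were low. For Obox7 the lowest, median and highest levels were 3.77, 30.0 and 312 CPM with control sperm and 2.46, 24.6 and 126 CPM with SER sperm. For Obox2 they were 2.88, 25.04 and 346 CPM with control sperm and 0, 8.21 and 196 CPM with SER sperm. In both groups the highest Obox2 level was that of the embryo that stood apart. The embryo with 0 counts of Obox2 was SER replicate 9, whose 811935 counts allow a level of up to 3.69 CPM (3 counts, counting error only). Both genes overlapped between groups, with 12 of 15 SER-generated embryos below the control median in each. Without the embryos that stood apart it was 9 of 14 for Obox7, with medians of 27.6 and 20.9 CPM, and 12 of 14 for Obox2.

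The zygotic members showed another pattern. Obox6 ranged from 0 over a median of 370 to 1335 CPM in control-generated embryos and from 0 over 539 to 923 CPM in SER-generated embryos. Its 0 values were those of control replicate 4 and SER replicate 15, whose depths allow levels of up to 4.53 and 1.17 CPM. In the other 29 embryos Obox6 was at 64.3 CPM or more, so the embryos that stood apart did not overlap the rest in this gene. These embryos had been picked by the levels of many other genes, and the share of all genes with such a gap was not counted. Crxos, Usp17lb, Gabpa and Psat1 were also at 0 CPM in both. In bulk RNA of an embryo, fewer cells with a transcript and less of it per cell cannot be told apart.

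Obox3 had a like pattern at a lower level. It ranged from 1.51 over a median of 54.8 to 293 CPM with control sperm and from 0.779 over 61.1 to 115 CPM with SER sperm. Control replicate 4 had 1 count and SER replicate 15 had 2 counts of Obox3, with exact Poisson intervals of 0.0382 to 8.41 and 0.0943 to 2.81 CPM. The other 29 embryos lay between 10.7 and 293 CPM, and the share of all genes with such a gap was not counted here either.

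**Figure D2:**
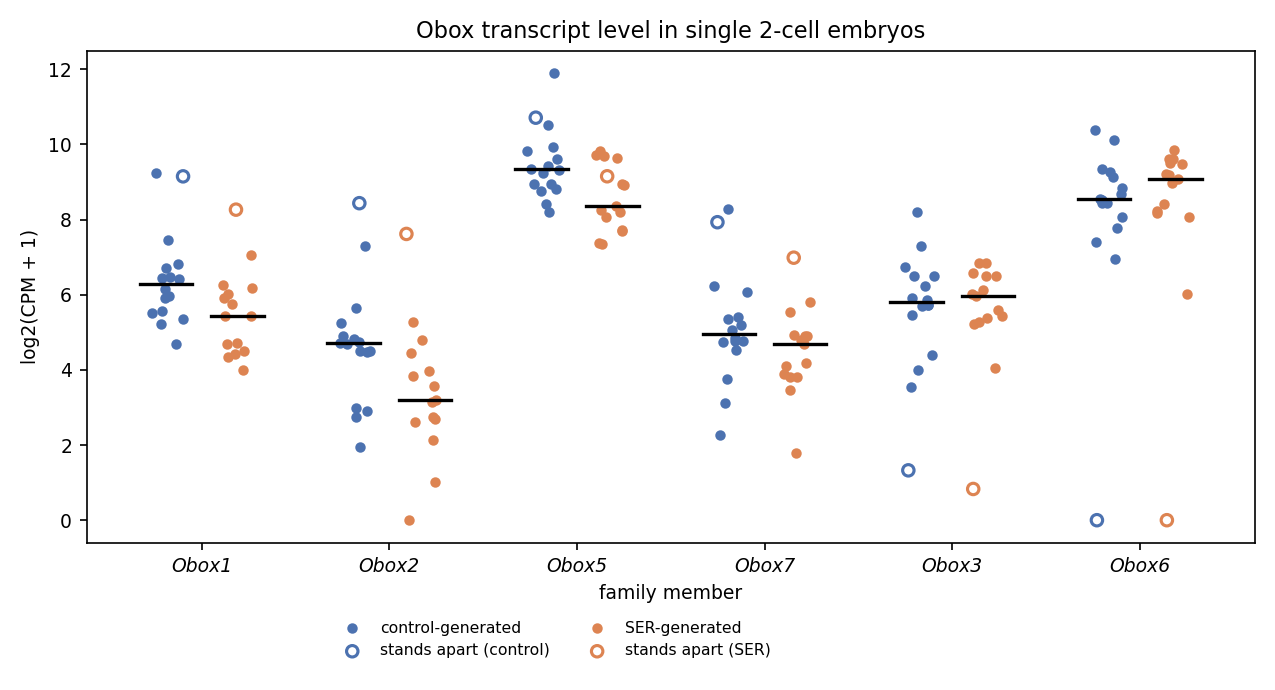
Level of each Obox member as log2(CPM + 1) (y axis) in single embryos, control-generated in blue and SER-generated in orange, with open circles for the 2 embryos that stood apart and black lines for group medians over all embryos of the group. The groups overlap for all 6 genes, and the open circles lie at the bottom for Obox3 and Obox6 and near the top for Obox1, Obox2 and Obox7.

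Set side by side per kilobase of annotated exon, Obox6 and Obox5 were above the other members. The counts merge internal reads with reads from the 5′ end, whose number need not rise with transcript length. Levels per kilobase are therefore approximate between genes. The median over 31 embryos was 307 CPM per kilobase for Obox6 and 231 for Obox5. It was 31.3 for Obox1, 17.9 for Obox3, 16.6 for Obox7 and 12.6 for Obox2. Obox6 exceeded Obox5 in 18 of 31 embryos, so these neighbours in the order did not differ beyond their spread, and Obox1 exceeded Obox3 in 20, Obox3 exceeded Obox7 in 20 and Obox7 exceeded Obox2 in 22. Obox5 exceeded Obox1 in all 31. Dividing by positions unique at 30 bases in place of exon length put Obox5 above Obox6, at 422 and 372 CPM per kilobase, and raised Obox1 to 165. Obox7 then exceeded Obox2 in 10 of 31 embryos. By the RefSeq transcript Obox1 exceeded Obox3 in 15. Obox3 exceeded Obox7 in 22 by the RefSeq transcript and in 23 by unique positions. The order at the top and part of the lower order thus depended on the length used.

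The share of the family's counts held by the zygotic members differed widely between embryos. Obox3 and Obox6 together made up a median of 39.8% of Obox counts in control-generated embryos and 58.9% in SER-generated embryos. It was 0.0532% in control replicate 4 and 0.0651% in SER replicate 15, and in the other embryos it ran from 12.5% to 71.9% in control- and from 9.85% to 79.4% in SER-generated embryos. The groups overlapped over most of their range. Per kilobase, the highest member was Obox6 in 8 of the 16 embryos of the control group and 10 of the 15 of the SER group and Obox5 in the rest. The sum of all members was 1703 ± 1252 CPM (SD, n = 16) with control sperm and 1128 ± 216 CPM (SD, n = 15) with SER sperm, and the highest sum, 5640 CPM, was that of control replicate 3.

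**Figure D3:**
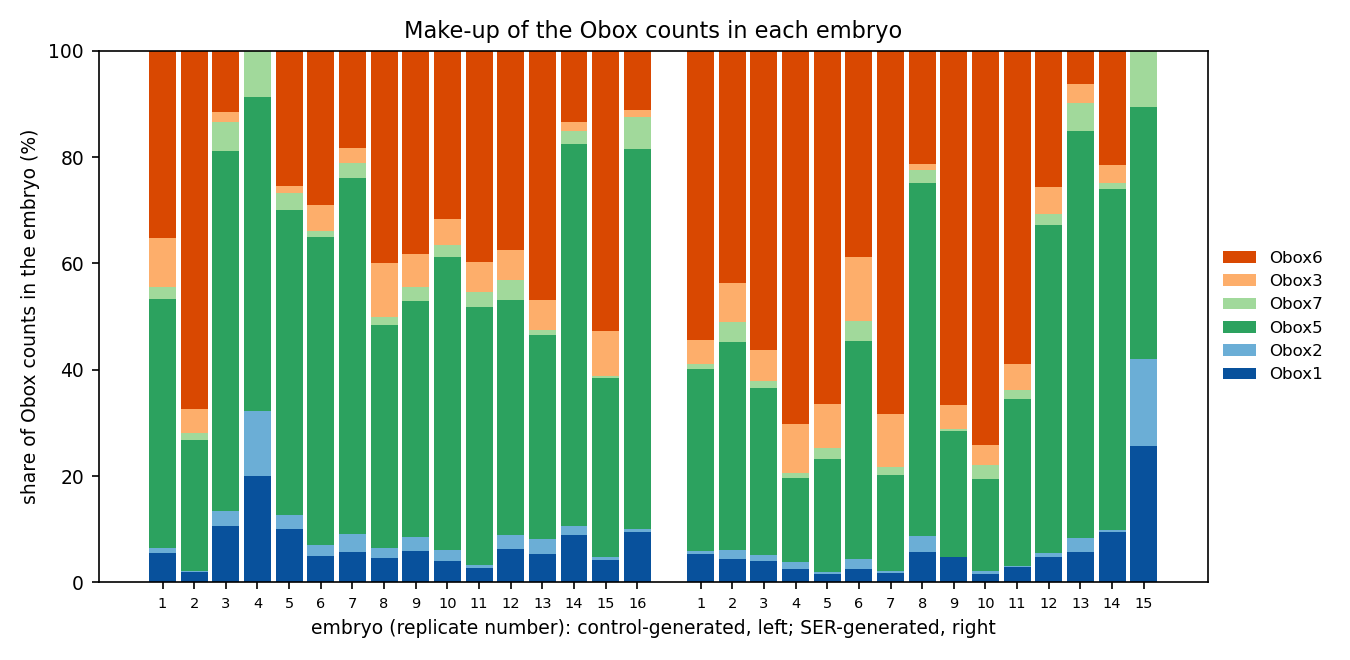
Share of each member in the Obox counts of an embryo (y axis, percent) for the 16 control-generated embryos on the left and the 15 SER-generated embryos on the right, numbered by replicate. Obox5 (dark green) and Obox6 (dark orange) fill most bars, and Obox6 is at 0 in control replicate 4 and SER replicate 15.

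Embryos of a group differed more in some members than in others. The SD of log2(CPM + 1) within groups was 2.40 for Obox6, larger than that of 99.8% of the 8571 genes tested. Without the 2 embryos that stood apart it was 0.96, larger than that of 49.1% of genes, so the wide spread of Obox6 rested on these embryos. For Obox3 the SD went from 1.57 to 1.02 in the same way. Obox2 stayed variable, with 1.71 over all embryos and 1.37 without the 2, above 79.2% of genes, on few counts per embryo. Obox5 had the lowest SD of the family, 0.91 with and 0.90 without them.

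The 2 groups of embryos were compared to see whether the sperm treatment is followed by a difference in embryonic transcripts. By edgeR's quasi-likelihood test over 8571 genes with Benjamini-Hochberg adjustment, no member passed an adjusted p of 0.1, and over all genes 0 (0%) did. At an unadjusted p under 0.05 there were 3 members, Obox1, Obox5 and Obox7, all lower in SER-generated embryos, where 3.55% of all tested genes were lower and 5.73% passed in either direction. Of the 6 estimates 5 were below 0, against 47.3% of all tested genes, and their median log2 fold change was -1.15 against 0.02. These counts describe genes of shared sequence and position, and read counts can pass between them, so they are not independent.

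Obox5 had mean levels of 920 ± 862 CPM (SD, n = 16) with control sperm and 456 ± 267 CPM (SD, n = 15) with SER sperm. Its log2 fold change (SER over control) was -1.14 ± 0.36 (SE), with an adjusted p of 0.45 in edgeR's test. That of Obox1 was -1.21 ± 0.49 (adjusted p = 0.745, edgeR), from 138 ± 178 to 64.9 ± 73.6 CPM. Obox7 with -1.18 ± 0.52 (adjusted p = 0.809, edgeR) and Obox2 with -1.16 ± 0.67 (adjusted p = 0.880, edgeR) had like estimates at lower counts. None of these 4 differences passed the test.

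The zygotic members had smaller estimates. Obox3 had 73.1 ± 70.6 CPM (SD, n = 16) with control sperm and 61.1 ± 34.2 CPM (SD, n = 15) with SER sperm, a log2 fold change of -0.33 ± 0.45 with an adjusted p of 0.968 in edgeR's test. Obox6 had 459 ± 347 and 493 ± 274 CPM, a log2 fold change of 0.03 ± 0.50 with an adjusted p of 0.997. The errors leave room for a difference of either sign in both genes.

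Without the 2 embryos that stood apart, the log2 fold changes were -1.32 for Obox1, -1.53 for Obox2, -1.07 for Obox5, -1.25 for Obox7, -0.34 for Obox3 and 0.03 for Obox6, with adjusted p from 0.319 to 0.990 by edgeR, and 4 members were lower at an unadjusted p under 0.05 where 4.88% of genes were. The call depended on the tool. DESeq2 called Obox1 (-1.74, adjusted p = 0.0298) and Obox5 (-1.19, adjusted p = 0.0978) among 49 genes, 0.572% of those tested. limma voom with sample quality weights called Obox5 (-0.95, adjusted p = 0.0171) and Obox2 (-1.55, adjusted p = 0.0725) among 848 genes, 9.89% of those tested. Without the filter on low counts edgeR called Obox5 (-1.10, adjusted p = 0.0929) among 504 genes, 2.83% of those tested. Control replicate 3 carried much of the difference, since without it the log2 fold changes by edgeR were -0.74 for Obox5, -0.79 for Obox1 and -0.66 for Obox7, and without control replicate 4 that of Obox2 was -0.44. Without SER replicate 15 it was -1.70 for Obox1 and -2.30 for Obox2, and no member passed an adjusted p of 0.1 in any edgeR fit that left out 1 embryo.

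**Figure D4:**
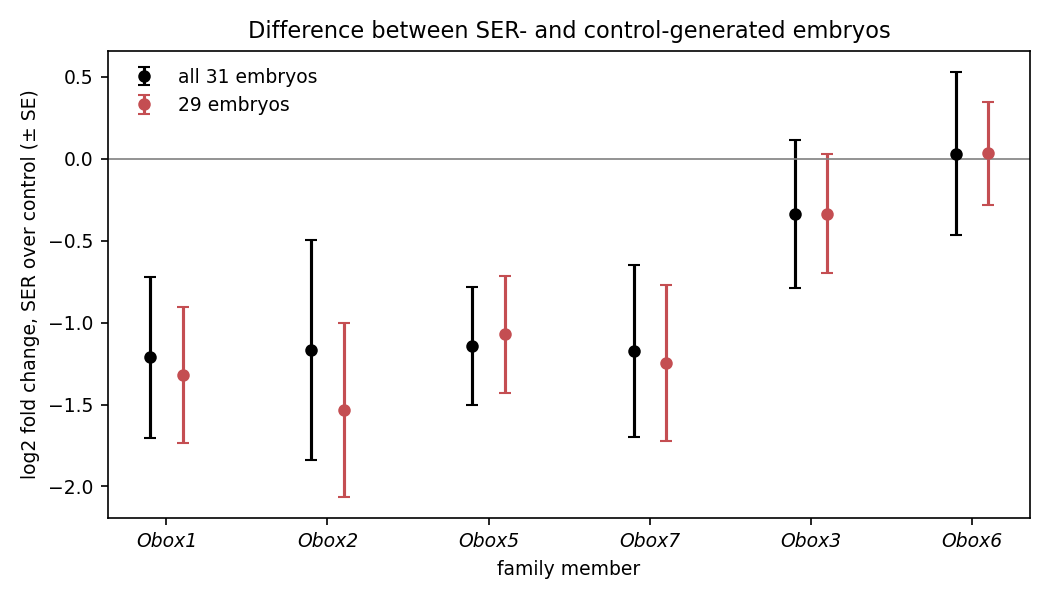
Log2 fold change of SER- over control-generated embryos by edgeR (y axis) with its SE as bars, over all 31 embryos (black) and over the 29 without the embryos that stood apart (red). Obox1, Obox2, Obox5 and Obox7 lie near -1 or below with bars that do not reach 0, and Obox3 and Obox6 have bars that do, and no member passed an adjusted p of 0.1.

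Oocyte transcripts were compared as a list, since the maternal members are of that kind. The summed level of 54 listed oocyte genes in the table was 31398 to 144744 CPM with a median of 60072 in control-generated embryos, and 24877 to 82599 CPM with a median of 37071 in SER-generated embryos. Of 50 tested, 0 passed an adjusted p of 0.1, 8 were lower and 0 higher at an unadjusted p under 0.05, and 36 had estimates below 0, with a median log2 fold change of -0.21 against 0.02 over all genes. The part of these levels in the Obox values was not tested. The genes of highest level were Zbed3 (log2 fold change -1.08 ± 0.40, adjusted p = 0.718 by edgeR), a component of the subcortical maternal complex, Omt2b (-0.58 ± 0.23, adjusted p = 0.745) and Spin1 (-0.01 ± 0.26, adjusted p = 0.999), a histone reader of the oocyte. Of 27 tested 2-cell burst genes 20 had estimates above 0, 0 of them at an unadjusted p under 0.05, and 7 below, with a median of 0.16. Their most abundant members were Mdm4 (0.31 ± 0.20), Kdm5b (0.52 ± 0.32) and Usp17lb (0.16 ± 0.47). In the embryos that stood apart Mdm4 was at 1474 and 3329 CPM, so it did not follow the burst list there. Kdm5b was at 21.1 and 26.5 CPM and Usp17lb at 0 in the same embryos.

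The members were then related to each other across embryos. Because the 2 embryos that stood apart form a cluster of their own, relations were computed over the other 29, as Pearson's r of log2(CPM + 1) with 2-sided permutation tests of 100000 resamples and Benjamini-Hochberg adjustment over 27 relations, those among the 15 pairs of members and of each member with the mean of the oocyte and the burst genes. Values of an embryo share its library and depth, and members share sequence. Of the 27, 12 passed an adjusted p of 0.05, all positive: the 6 pairs among Obox1, Obox2, Obox5 and Obox7, the pair Obox3 and Obox6, the relation of each of the former 4 to the oocyte genes, and that of Obox3 to the burst genes.

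Obox1 and Obox5 were the closest pair. Their r was 0.91 (permutation adjusted p = 6.7e-05, from the smallest p these resamples give, 1e-05), and rho was 0.87. It was 0.91 in the 15 control- and 0.86 in the 14 SER-generated embryos, and 0.84 without the 2 embryos farthest from the median of Obox1. Among 8570 other tested genes, Obox5 had the highest r with Obox1, for which Obox2 ranked 286 and Obox7 ranked 311. For Obox5 the ranks were 2 for Obox1, 74 for Obox7 and 151 for Obox2. Obox5 ranked 4 for Obox7 and 5 for Obox2. Of the 30-base positions of Obox1, 19.3% occur in Obox5, against 69.5% in Obox2, whose r with Obox1 was 0.60 (rho = 0.58, permutation adjusted p = 0.0019).

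Obox7 and Obox2 followed less closely. Obox7 had r = 0.74 with Obox5 (rho = 0.63) and 0.59 with Obox1 (rho = 0.50), and Obox2 had 0.67 with Obox5 (rho = 0.63) and 0.65 with Obox7 (rho = 0.56), with permutation adjusted p from 6.7e-05 to 0.0029. Without the 2 embryos farthest from the median of the first gene, Obox1 and Obox7 had r = 0.42 (adjusted p = 0.063) and Obox2 and Obox7 had r = 0.36 (adjusted p = 0.12). Leaving out extreme values narrows the range of a gene and by itself lowers r, so this does not show that the relations rested on such embryos. Over the 29 embryos the rho of these pairs had permutation adjusted p of 0.013 and 0.0045. The relations among these 4 members were not alike within groups. In SER-generated embryos alone Obox1 and Obox7 had r = 0.06, Obox1 and Obox2 0.25, Obox2 and Obox5 0.48 and Obox5 and Obox7 0.50, none past the test (permutation adjusted p from 0.22 to 0.90), against 0.82, 0.73, 0.69 and 0.88 in control-generated embryos. Obox2 and Obox7 had r = 0.75 in SER-generated embryos and 0.54 in control-generated embryos, the latter not past the test (adjusted p = 0.080). These differences between groups were not tested.

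Obox3 and Obox6 had r = 0.69 (rho = 0.71, permutation adjusted p = 0.00016), with 0.66 without the 2 farthest embryos. Among 8570 other tested genes Obox6 ranked 167 for Obox3 and Obox3 ranked 436 for Obox6, so many genes outside the family were closer. The r of Obox3 and Obox6 also differed between groups. It was 0.88 in control- and 0.46 in SER-generated embryos, the latter not past the test (adjusted p = 0.22), and this difference was not tested. With the maternal members Obox3 had r between -0.03 and 0.07 and Obox6 between -0.26 and -0.18, none past the test. For Obox5 and Obox6 the value depended on the embryos and the coefficient, with r = -0.26 (adjusted p = 0.30), rho = -0.41 (adjusted p = 0.0497), r = -0.59 (adjusted p = 0.0059) without the 2 farthest embryos, 0.14 in control- and -0.65 in SER-generated embryos. The difference between the groups in this value was not tested.

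**Figure D5:**
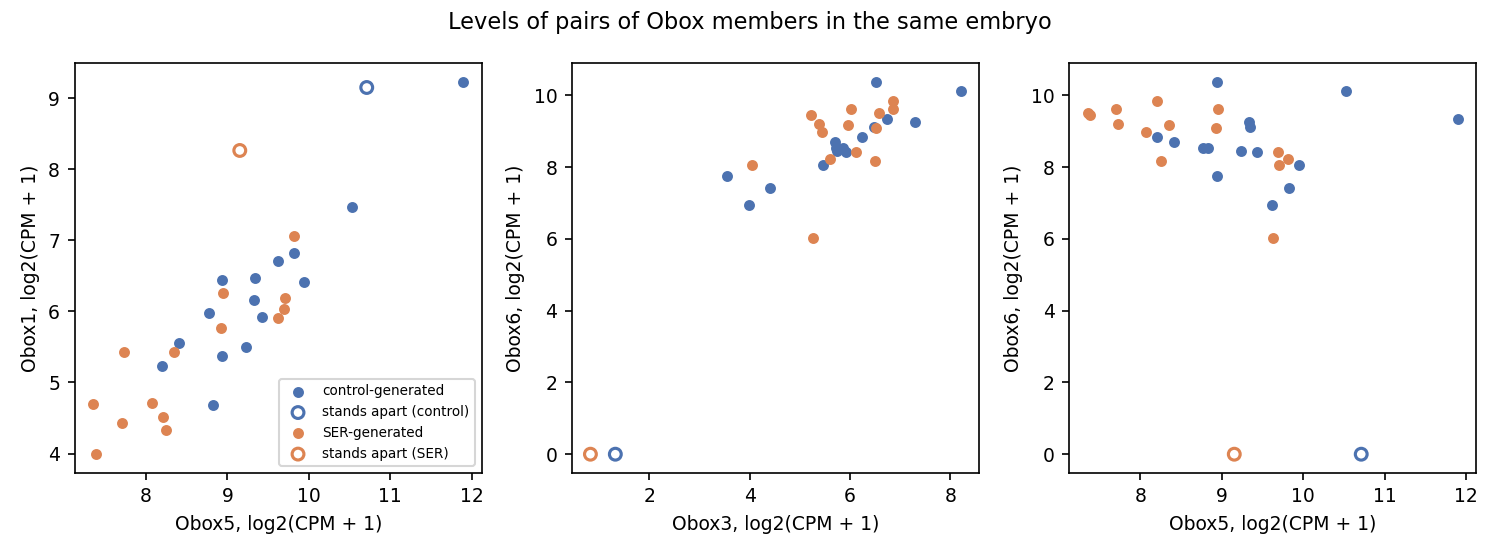
Levels of 3 pairs of members in the same embryo as log2(CPM + 1) on both axes, control-generated in blue, SER-generated in orange and the 2 embryos that stood apart as open circles. Obox1 rises with Obox5 (r = 0.91 over 29 embryos) and Obox6 with Obox3 (r = 0.69), while Obox6 shows no such rise with Obox5 (r = -0.26).

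The oocyte genes as a whole had r = 0.93 with Obox5, 0.86 with Obox1, 0.63 with Obox7 and 0.62 with Obox2 over these 29 embryos, all with permutation adjusted p of 0.00092 or less. Their rho was 0.94, 0.86, 0.57 and 0.57. Within control-generated embryos r was 0.94, 0.84, 0.87 and 0.68. Within SER-generated embryos it was 0.91 with Obox5 and 0.87 with Obox1, while 0.35 with Obox7 (permutation adjusted p = 0.35) and 0.45 with Obox2 (adjusted p = 0.22) did not pass the test. The burst genes had r = 0.68 with Obox3 (rho = 0.63, permutation adjusted p = 0.00031), which was 0.89 in control- and 0.50 in SER-generated embryos, the latter not past the test (adjusted p = 0.22). With Obox6 they had r = 0.36 (permutation adjusted p = 0.11), rho = 0.46 (adjusted p = 0.027) and r = 0.58 (adjusted p = 0.0066) without the 2 farthest embryos, and r was 0.79 in control- and 0.0066 in SER-generated embryos. The differences between groups were not tested.

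The genes whose pattern was most like that of each member were named by r over all 31 embryos among 8570 tested genes, and are given with r over the 29, as a description. For Obox5 they were Med27, a Mediator subunit (0.89 and 0.91), Rfpl4, an oocyte RING finger gene (0.87 and 0.89), and Tcl1b3 (0.87 and 0.86). For Obox1 they were Accsl (0.90 and 0.85), Ldhb, a lactate dehydrogenase (0.89 and 0.85), and Rfpl4 (0.89 and 0.85). Obox7 was nearest to the checkpoint kinase gene Chek1 (0.81 and 0.74), Cmc4 (0.78 and 0.77) and Stxbp6 (0.78 and 0.72), and Obox2 to Chek1 (0.78 and 0.65), Obox7 (0.75 and 0.65) and Ldhb (0.74 and 0.56). The genes of most opposite pattern were Grwd1 and Tfcp2 for Obox5 (-0.85 and -0.83 over the 29), Pprc1 and Timm29 for Obox1 (-0.85 and -0.85), Rab11fip5 and Stk40 for Obox7 (-0.75 and -0.80), and Bend3 and Ccdc137 for Obox2 (-0.66 and -0.68).

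The embryos that stood apart set many of the names for the zygotic members. Gabpa, an ETS family transcription factor (0.98 and 0.86), Gcsh of the glycine cleavage system (0.97 and 0.84) and Psat1 of serine synthesis (0.97 and 0.81) were nearest to Obox6, and were at 0 to 1.51 CPM in control replicate 4 and SER replicate 15. Over the 29 embryos they ranked 13, 36 and 81 for likeness to Obox6. For Obox3 the genes were Mad2l1bp (0.93 and 0.81), the RNA polymerase I subunit gene Znrd1 (0.93 and 0.90), which also ranked 1 over the 29, and the ribosomal protein gene Rps3a1 (0.93 and 0.82). The most opposite were Zcchc8 and Oas1d for Obox6 (-0.67 and -0.54 over the 29) and Uhrf1, which guides maintenance DNA methylation, and Zcchc8 for Obox3 (-0.74 and -0.72).

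Other paired-type homeobox genes were listed for comparison. Of 23 listed genes 18 were in the table, of which 4 passed the filter on low counts and 0 differed between groups at an unadjusted p under 0.05. Crxos, a homeobox gene of early embryos, had 257 ± 216 CPM (SD, n = 16) with control sperm and 275 ± 142 CPM (SD, n = 15) with SER sperm, and like Obox6 it had 0 counts in control replicate 4 and SER replicate 15 and was detected in the other 29. The oocyte homeobox genes Sebox, with 383 ± 206 and 384 ± 233 CPM, and Nobox, with 95.9 ± 68.4 and 141 ± 163 CPM, were detected in all 31. Both were above their group mean in the embryos that stood apart, Sebox at 581 and 860 CPM and Nobox at 287 and 652 CPM. Otx1 had 17.2 ± 18.7 and 7.86 ± 8.87 CPM (log2 fold change -1.15 ± 0.71, adjusted p = 0.912 by edgeR).

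Paired-type genes that the filter removed were low. Crx, Gsc and Pitx1 had group means of 2.08 to 6.06 CPM, and Esx1, Dux, Otx2, Rhox5, Rhox6, Rhox9 and Rhox13 of at most 1.05 CPM. Dux, whose product activates 2-cell genes in a brief burst before this stage, had counts in 10 of 31 embryos. Duxbl1, Duxbl2 and Duxbl3 had 0 counts in all. Among 30 tested homeobox genes of other classes, 0 differed at an unadjusted p under 0.05. Of their estimates 19 were above 0 and 11 below, where 47.3% of all tested genes were below. The most abundant were Pou5f1 (574 ± 388 and 478 ± 300 CPM), Meis2 (393 ± 230 and 418 ± 509 CPM) and Cers5 (211 ± 51.4 and 223 ± 74.0 CPM).

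Factors linked to zygotic genome activation were listed beside the family. Of 28 tested, 0 passed an adjusted p of 0.1 and 1 was higher at an unadjusted p under 0.05, Klf17, with 996 ± 361 CPM with control sperm and 1435 ± 387 CPM with SER sperm (log2 fold change 0.50 ± 0.20, adjusted p = 0.731 by edgeR). The most abundant of them was the maternal factor gene Dppa3, with 2870 ± 1955 and 2805 ± 1051 CPM, and Yap1 had 916 ± 405 and 731 ± 171 CPM (log2 fold change -0.35 ± 0.19, adjusted p = 0.869).

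Marker lists of other cells were low in most embryos. Of 22 cumulus genes 3 passed the filter, with Amhr2 at 95.1 ± 49.2 and 132 ± 74.3 CPM. Amhr2 had counts in 29 embryos and was at 0 in both that stood apart, the pattern of Crxos. It is part of the cumulus sum, and whether it came from cumulus cells was not tested. Hsd3b1 and Cyp11a1 had means of 145 and 106 CPM with control sperm against 1.07 and 2.45 CPM with SER sperm. Their SD was 514 and 352 CPM in the control group. The filter removed Hsd3b1 and Cyp11a1, and without it edgeR called both lower in SER-generated embryos (log2 fold change -6.76, adjusted p = 0.0083, and -5.35, adjusted p = 0.026), in the fit that also called Obox5. Without control replicate 5, the embryo of highest cumulus level, and the 2 that stood apart, the log2 fold change was -1.11 for Obox5 and -1.35 for Obox1 by edgeR, adjusted p 0.386 and 0.348. Of 18 sperm genes 2 passed the filter, Odf2 with 174 ± 52.8 and 189 ± 80.6 CPM and Ldhc with 12.2 ± 13.2 and 7.65 ± 6.01 CPM, and the sperm protamine gene Prm2 had 4.06 ± 5.04 and 4.02 ± 4.84 CPM. Of 13 leukocyte genes 0 passed the filter, and Laptm5, Cd74 and Cd68 had group means of 4.90 to 12.1 CPM.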

How the data were processed

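RNA of single 2-cell embryos was sequenced by Smart-seq3, which tags the 5′ end reads, and not the internal reads, with a molecular identifier. STAR alignments, restricted to unique ones for 5′ reads, were stripped of duplicates by UMI-tools or Picard and merged by the authors, and featureCounts gave gene totals. The deposited values are whole-number counts, without normalization, for 20544 symbols in 31 embryos. Per the labels the build was mm10, and the annotation, the strand setting and the versions are not given in the sources used here. The study corrected batches with ComBat-seq and tested with DESeq2, calling genes at an adjusted p of 0.1, but no label gives an embryo's batch, so no batch term was entered. The deposited table is named as raw counts and was taken as preceding that correction, which the methods do not state.

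The members and the gene lists, which come from general knowledge, were chosen with earlier results of these data known. The groups were compared over all genes by edgeR 4.0.16 (quasi-likelihood test, TMM, filterByExpr at 10 counts and a total of 15, Benjamini-Hochberg, adjusted p under 0.1). Of 17803 genes with a count 8571 were tested, including all members, and a fit without the filter gave the values of low genes. SE is the log2 fold change divided by the square root of F. Genes named were the members, the paired-type list (of which not every gene is reported here), the 3 most abundant of each other list and, for each member, the 3 tested genes of highest and 2 of lowest r over 31 embryos. Exon lengths came from GENCODE vM21 (all 6 members) and promoters from RefSeq (5 of 6), both on GRCm38.

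Alternatives were DESeq2 1.42.0, its size factors, limma 3.58.1 voom, other filters, surrogate variables (sva 3.50.0), the library total or replicate number as a term, thinning, a threshold of 0.05 and each embryo left out. Those without the embryos that stood apart or with the highest cumulus level, and levels by RefSeq transcript or unique positions, were added after seeing the data. Tests were checked on simulated data, and 0 pairs of libraries were identical. Intervals and floors cover counting error only.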

Additional observations from a re-analysis of the deposited data

How the results depend on the processing

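Over all genes edgeR called 0 at an adjusted p of 0.1 (491 at an unadjusted p under 0.05), and 0 in each of the 31 fits that left out 1 embryo. It called 504 without the filter and 7 with 5 surrogate variables. DESeq2 called 49, and 73 without the 2 embryos that stood apart, and limma voom 848 and 852. Of the 6 members 0 passed in edgeR and in every fit without 1 embryo, 1 without the filter (Obox5, adjusted p = 0.0929), 2 by DESeq2 and 1 by DESeq2 without the 2 embryos (Obox1, adjusted p = 0.0905), and 2 by limma voom (Obox2 and Obox5), also without the 2 embryos. The cause was not tested.

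Obox1, Obox2, Obox5 and Obox7 kept a negative log2 fold change in every alternative, from -1.74 to -0.46, -1.66 to -1.04, -1.27 to -0.51 and -1.50 to -0.31, and without 1 embryo from -1.70 to -0.79, -2.30 to -0.44, -1.25 to -0.74 and -1.58 to -0.66. Obox2 was filtered out in thinned counts. Obox3 turned to 0.30 by limma voom and 0.25 by limma voom without the 2 embryos, and ran from -0.45 to 0.062 over the fits without 1 embryo. Obox6 turned to -0.039 with the library total as covariate and -0.018 without the 2 embryos and the one of highest cumulus level, and ran from -0.086 to 0.23 without 1 embryo, 10 of the 31 fits being below 0.

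Deviations of same-numbered embryos from their group means had r from -0.37 to 0.49 over 15 pairs, with a median of 0.11. Of these pairs 8 were above 0.1 and 4 were best with their own number. These values do not settle whether the numbers pair embryos. With the replicate number as a block 0 genes and 0 members were called, with -0.89 for Obox5 and -0.045 for Obox6.

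In the order per kilobase 6 members kept their place by TMM or transcript length and 2 by unique positions. Positions unique in the genome were not run, since no genome sequence was used. Of 27 relations 12 passed in the main analysis, 12 to 15 under other coefficients, pseudocounts or scaling, 12 without the 2 farthest embryos, 12 in control- and 5 in SER-generated embryos alone. The SD exceeded that of the median gene in 5 of 6 members, and in 4 without the 2 embryos.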
